A study of Mus musculus with 6 samples.

Results

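10 imprinted genes from 6 imprinted domains of the mouse genome were followed through RNA-seq of FLK1+ mesoderm: Cdkn1c and Phlda2 of the Kcnq1 domain, Peg3 and Zim1 of the Peg3 domain, Peg10, Sgce and Asb4 of the Peg10 domain, Mest, Plagl1 and Nnat. The members were chosen by name, with earlier results of these same libraries known, so their Scl-/- against WT values are given below as a description, and calls in that contrast are only counted beside those of all genes. All 10 symbols were found among the 14005 genes listed, and all 10 passed the filter on low values, which left 13991 genes for testing.

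The cells were FLK1+ cells isolated from embryoid bodies (EBs) at day 3.5 of embryonic stem (ES) cell differentiation with an antibody to FLK1, the VEGF receptor encoded by Kdr, and magnetic beads. There were 3 libraries from the wild-type (WT) J1 ES cell line and 3 from a line without the blood regulator Scl (gene symbol Tal1), numbered 1 to 3 in both groups and made from independent differentiations. The strain is labelled as a cross of C57Bl/6 with Sv129, where the number after Sv counts upwards over 3 of the labels. Each genotype was represented by 1 ES cell line, with titles that begin with j1 in both groups and no stated relation between the lines, so that genotype and line cannot be told apart, and the values are sums over both parental alleles.

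Imprinted genes are transcribed mainly or solely from the copy inherited from one parent. Each domain has an imprinting control region whose DNA methylation is set in the egg or sperm and kept through later cell divisions, and the genes around it are silenced or expressed according to that mark. Several members regulate growth of the embryo and placenta, paternally expressed genes mostly as promoters of growth and maternally expressed genes mostly as brakes, and imprinted expression is known to vary among ES cell lines and with their time in culture. Of the 10 members, Peg3, Peg10, Sgce, Mest, Plagl1 and Nnat are expressed from the paternal copy and Cdkn1c, Phlda2, Zim1 and Asb4 from the maternal copy.

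ZFP57, a zinc finger protein that keeps imprints methylated, recognises the letters TGCCGC when their CpG is methylated. The windows from 250 bases before to 50 bases after the annotated start are shown for the neighbouring Zim1 and Peg3, whose values lay in opposite directions, and for Nnat, the member with the largest value above WT. They are RefSeq sequences of the build GRCm38.p6, at chr7:6696383-6696682 for Zim1, chr7:6730370-6730669 for Peg3, both on the minus strand, and chr2:157559828-157560127 on the plus strand for Nnat. Capitals mark each match to TGCCGC or to its reverse complement GCGGCA.

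Zim1: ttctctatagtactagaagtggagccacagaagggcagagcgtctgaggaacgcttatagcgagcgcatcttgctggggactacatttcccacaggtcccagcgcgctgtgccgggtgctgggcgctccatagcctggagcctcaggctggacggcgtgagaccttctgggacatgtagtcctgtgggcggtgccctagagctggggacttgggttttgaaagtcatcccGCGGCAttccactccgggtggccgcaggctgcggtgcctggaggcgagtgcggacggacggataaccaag

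Peg3: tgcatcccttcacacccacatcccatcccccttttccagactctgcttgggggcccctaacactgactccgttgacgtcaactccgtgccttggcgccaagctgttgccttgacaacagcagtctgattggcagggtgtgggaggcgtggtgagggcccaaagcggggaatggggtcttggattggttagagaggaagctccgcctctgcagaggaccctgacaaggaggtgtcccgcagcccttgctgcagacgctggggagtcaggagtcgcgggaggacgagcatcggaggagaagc

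Nnat: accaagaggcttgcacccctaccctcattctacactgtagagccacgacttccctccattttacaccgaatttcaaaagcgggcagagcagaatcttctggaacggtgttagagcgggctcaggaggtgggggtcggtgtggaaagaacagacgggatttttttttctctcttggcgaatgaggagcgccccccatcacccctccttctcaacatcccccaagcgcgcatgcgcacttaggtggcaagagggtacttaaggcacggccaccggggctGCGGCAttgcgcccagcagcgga

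The Zim1 window held 1 match and 20 CpG dinucleotides, the Peg3 window no match and 13 CpG, and the Nnat window 1 match and 17 CpG. Windows were found for 7 members, and 4 of them (Zim1, Nnat, Mest and Plagl1) held a match in at least 1 window. Counted by window, a match was held by 5 of the 10 windows of these members and by 11.6% of all 32851 windows. The matching Mest windows overlap almost wholly. The median window of all held 7 CpG, the motif itself holds a CpG, and the shares were not matched for CpG number. The windows lie at annotated starts and were not compared with the positions of the imprinting control regions. A match, or its absence, in a window therefore does not tell whether a control region holds one. These letters are a description of the windows, and DNA methylation was not measured in these libraries.

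The levels of the members spanned a wide range. Per kilobase of exon, WT cells held most Peg10, at 276 ± 39.3 CPM per kb (SD, n = 3; CPM are reads scaled to library size), a protein derived from the Gag and Pol parts of a retrotransposon and needed for placental development. Phlda2 followed at 252 ± 48.2 CPM per kb, and the ranges of these first 2 genes overlapped. Peg3 (136 ± 29.9) and Mest (134 ± 19.8) came next and also overlapped with each other, ahead of Cdkn1c at 49.8 ± 1.85 CPM per kb. Asb4 (11.8 ± 4.23) stood apart from both of its neighbours in this order. Sgce (5.61 ± 1.55), Nnat (4.98 ± 3.25) and Zim1 (4.13 ± 0.870) overlapped each with the next, and Plagl1 was lowest at 1.10 ± 0.339 CPM per kb.

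In Scl-/- cells Peg10 again had the highest level per kilobase, at 370 ± 30.3 CPM per kb, and its range was clear of the next gene. Peg3 (197 ± 30.0), Phlda2 (140 ± 44.0) and Mest (132 ± 30.1) formed a run in which each overlapped with the next. The same held for Asb4 (25.3 ± 8.60), Nnat (23.8 ± 3.00), Cdkn1c (19.9 ± 24.1) and Sgce (10.8 ± 1.48). Plagl1 (2.14 ± 0.783) and, last, Zim1 (0.332 ± 0.0687 CPM per kb) stood below them.

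**Figure D1:**
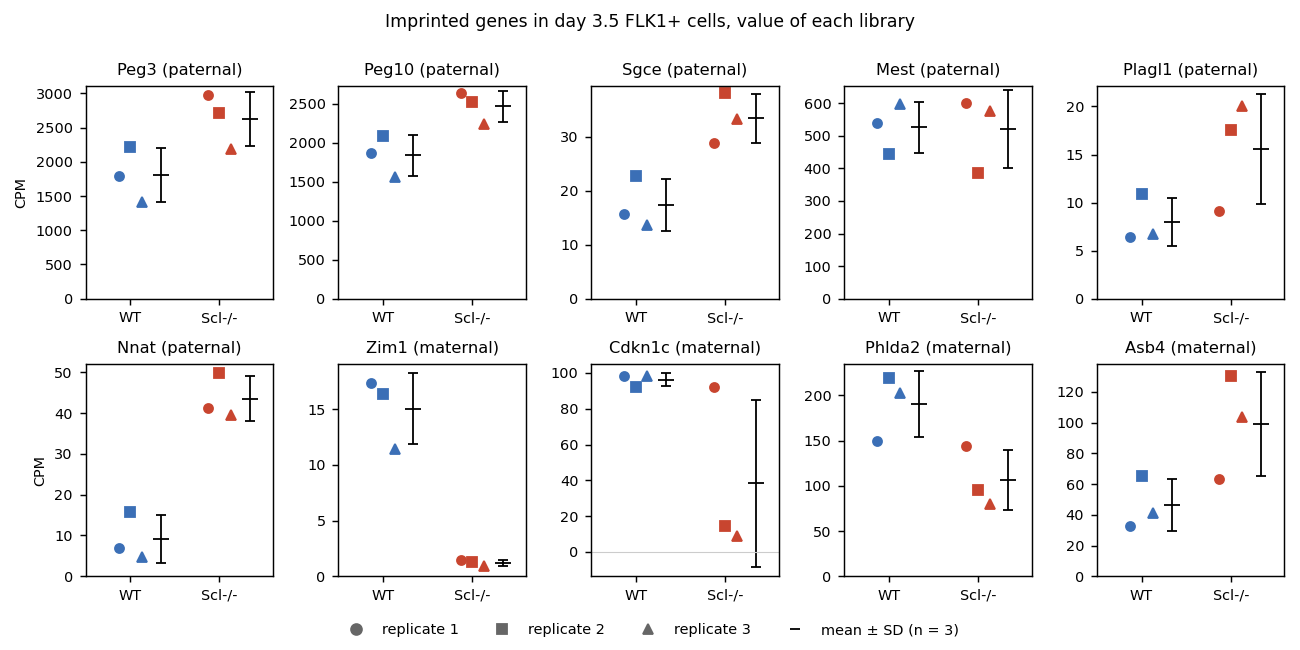
CPM of the 10 members in each of the 6 libraries, with WT in blue, Scl-/- in red, the marker shape giving the replicate number and the bars the mean ± SD (n = 3). Zim1, at 11.4 to 17.3 CPM in WT and 0.930 to 1.41 CPM in Scl-/-, is the member furthest apart on the low side, Nnat on the high side, and the Scl-/- values of Cdkn1c lie between 8.75 and 92.1 CPM.

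The member with the largest value in the Scl-/- against WT contrast was Zim1 (ENSMUSG00000002266, chr7:6628154-6649161 on the minus strand in mm9), a zinc finger gene that lies next to Peg3 and is expressed from the maternal copy. It was at 17.3, 16.4 and 11.4 CPM in WT replicates 1, 2 and 3 and at 1.41, 1.28 and 0.930 CPM in Scl-/- replicates 1, 2 and 3. The 3 Scl-/- values were close together and all below the lowest WT value. The WT mean was 12.4 times the Scl-/- mean, and the log2 fold change, taken as everywhere below on log2(CPM + 0.5), was -3.17 (SE 0.22). The reads behind these values numbered 470 to 690 in the WT libraries and 41 to 69 in the Scl-/- libraries, so the gene was low but not absent without Scl.

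Peg3 (ENSMUSG00000002265, chr7:6656603-6683132, minus strand), a large zinc finger protein gene expressed from the paternal copy, has its annotated end 7441 bases from Zim1. It was at 1792, 2212 and 1417 CPM in WT and at 2970.1, 2714 and 2188 CPM in Scl-/- replicates 1 to 3. The Scl-/- library was the higher one in every same-numbered pair, by 0.73, 0.30 and 0.63 on the log2 scale, while the groups overlapped because Scl-/- replicate 3 was below WT replicate 2. The log2 fold change was 0.55 (SE 0.19), or 1.45-fold on the mean CPM. Around this pair of genes, the 5 other non-member tested genes within 500 kb of Zim1 lay between -0.62 and 0.18 on the log2 scale.

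In the Kcnq1 domain the maternally expressed genes are silenced in cis on the paternal chromosome by the long non-coding RNA Kcnq1ot1. Cdkn1c (ENSMUSG00000037664, chr7:150644255-150646955, minus strand) encodes p57, an inhibitor of cyclin-dependent kinases that limits growth. WT cells held 98.1, 92.0 and 98.3 CPM. Scl-/- replicate 1 was at 92.1 CPM, within the WT range, and Scl-/- replicates 2 and 3 were at 14.2 and 8.75 CPM. The Scl-/- libraries thus did not share one level of Cdkn1c, and the log2 differences of the 3 pairs were -0.09, -2.65 and -3.42. The log2 fold change over all libraries was -2.05 (SE 0.75), -3.05 (SE 0.20) without Scl-/- replicate 1 and -1.39 (SE 0.67) without Scl-/- replicate 3.

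Phlda2 (ENSMUSG00000010760, chr7:150687450-150688446, minus strand), whose product restrains growth of the placenta, starts 41.5 kb from Cdkn1c. It was at 149.7, 219.5 and 203 CPM in WT and at 144, 95.1 and 80.0 CPM in Scl-/- replicates 1 to 3. All Scl-/- values were below all WT values, but pair 1 differed by only -0.06 on the log2 scale against -1.20 and -1.34 in pairs 2 and 3. The order of the 3 Scl-/- libraries was therefore that of Cdkn1c, with a smaller span. The log2 fold change was -0.87 (SE 0.23), and -1.11 (SE 0.19) without Scl-/- replicate 1.

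Other genes of the Kcnq1 domain differed less from WT in pairs 2 and 3. The 9 other rows of the domain, Cd81, Trpm5, Tssc4, Kcnq1, Nap1l4, Cars, Osbpl5 and a pair of identifiers for Tnfrsf22, had log2 fold changes between -0.40 and 0.28, and none passed the thresholds in either model described below. Cd81, a tetraspanin of the cell surface, was at 174, 167 and 181 CPM in WT and 165, 119 and 129 CPM in Scl-/-, again with Scl-/- replicate 1 nearest to WT. Nap1l4, a histone chaperone gene next to Phlda2, differed by -0.08, -0.10 and -0.21 in the 3 pairs. Kcnq1 itself spanned 35.0, 22.9 and 5.78 CPM over Scl-/- replicates 1 to 3, in the order of Cdkn1c and Phlda2, but WT replicates 1 to 3 had the same order, at 31.3, 25.4 and 3.06 CPM. In pair 3, at 0.82 on the log2 scale, Kcnq1 was the non-member furthest from 0 in the plot of the domain by pair.

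**Figure D2:**
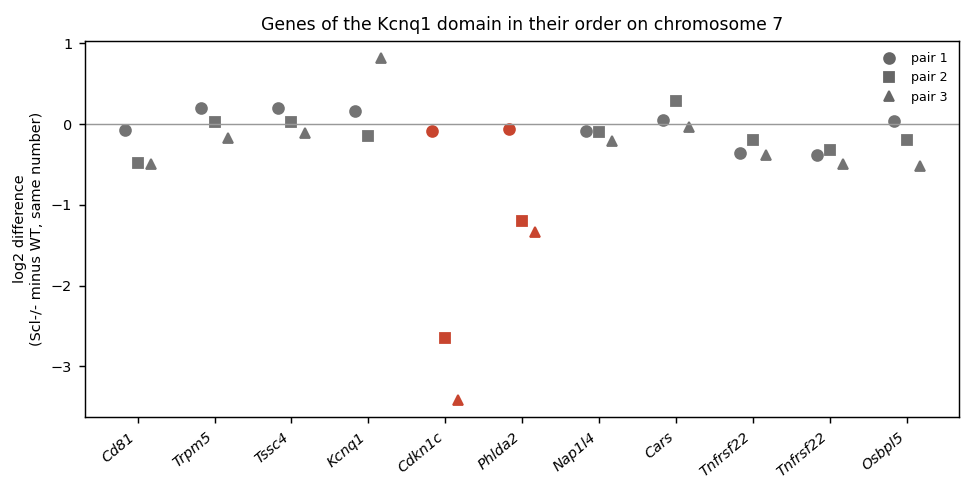
Log2 difference of log2(CPM + 0.5), Scl-/- minus the WT library of the same number, for the rows of the Kcnq1 domain in their order on chromosome 7 (circle, square and triangle for pairs 1, 2 and 3; members in red, other genes in grey). Cdkn1c and Phlda2 are near 0 in pair 1 and lie at -2.65 and -1.20 in pair 2 and -3.42 and -1.34 in pair 3, apart from the grey genes.

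Scl-/- replicate 1 also stood apart from the other Scl-/- libraries in several marker sums, but not in that of the haemato-endothelial markers. That sum was 520, 387 and 542 CPM in Scl-/- replicates 1 to 3. The FLK1+ mesoderm markers summed to 1833 CPM in Scl-/- replicate 1, against 2652 and 2659 CPM in Scl-/- replicates 2 and 3. In WT replicates 1 to 3 they summed to 1488, 1889 and 1646 CPM, with replicate 1 again the lowest. Markers of other cells differed too. The 6 of 7 undifferentiated ES cell markers in the table (all but Dppa3) summed to 124, 285 and 238 CPM in Scl-/- replicates 1 to 3, against 132 to 207 CPM in WT. Pou5f1, which keeps ES cells pluripotent, was at 71.6, 190.3 and 177 CPM in Scl-/- replicates 1 to 3. In WT replicates 1 to 3 it was at 67.1, 122 and 92.3 CPM. The 5 of 7 trophoblast markers in the table (all but Elf5 and Krt7), led by Hand1, which is also the highest gene of the cardiac and paraxial mesoderm list, summed to 687, 316 and 430.4 CPM in Scl-/- replicates 1 to 3 and to 513 to 688 CPM in WT. Plac1, a placental gene of that list, was at 22.7, 5.63 and 6.87 CPM in Scl-/- and 8.10 to 17.01 CPM in WT. The part of these cells in the values of Cdkn1c and Phlda2 was not tested. In bulk RNA, fewer cells of a type and less RNA per cell cannot be told apart.

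The Peg10 domain held 3 members. Peg10 (ENSMUSG00000092035, chr6:4697306-4710514, plus strand) was at 1866, 2084 and 1562 CPM in WT and at 2632, 2528 and 2242 CPM in Scl-/-. The lowest Scl-/- value was above the highest WT value, and the log2 fold change was 0.43 (SE 0.14), or 1.34-fold. Sgce (ENSMUSG00000004631, chr6:4624350-4697204, minus strand), which encodes the membrane protein epsilon-sarcoglycan, is transcribed away from Peg10, and the 5′ ends of these paternally expressed genes lie 101 bases apart. Sgce was at 15.7, 22.7 and 13.5 CPM in WT and at 28.9, 38.0 and 33.2 CPM in Scl-/-. Its groups did not overlap either, and its log2 fold change was 0.95 (SE 0.21), so that both genes of the shared start region were higher in Scl-/- in every pair.

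Asb4 (ENSMUSG00000042607, chr6:5333386-5383022, plus strand) encodes a subunit that selects the substrates of a ubiquitin ligase, is expressed from the maternal copy and starts 636 kb from Peg10. It was at 32.9, 65.0 and 41.4 CPM in WT and at 63.5, 131 and 104 CPM in Scl-/-. Scl-/- was higher in each pair, by 0.94, 1.00 and 1.32 on the log2 scale, while Scl-/- replicate 1 lay just below WT replicate 2. The log2 fold change was 1.09 (SE 0.32), and Asb4 was the only maternally expressed member above WT. Between Sgce and Asb4 lies Ppp1r9a, a gene for the actin-binding protein neurabin that is not a member. It was at 39.2, 26.3 and 24.5 CPM in WT and at 17.9, 9.89 and 14.5 CPM in Scl-/-, with a log2 fold change of -1.07 (SE 0.26), opposite in sign to the 3 members on both of its sides. The paraoxonase genes Pon3 and Pon2 (0.17 and -0.07) and the sialic acid acetyltransferase gene Casd1 (-0.11) of the same domain were near 0.

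Nnat (ENSMUSG00000067786, chr2:157385814-157388258, plus strand), which encodes the small membrane protein neuronatin of neural and endocrine cells, was at 6.82, 15.9 and 4.64 CPM in WT. Scl-/- cells held 41.2, 49.8 and 39.6 CPM. The groups did not overlap, the Scl-/- mean was 4.78 times that of WT, and the log2 fold change was 2.36 (SE 0.39). WT replicate 2 was the highest WT library and Scl-/- replicate 2 the highest Scl-/- library. The 4 of 6 neural markers in the table (all but Sox1 and Neurog2), led by Nes, summed to 72.4 to 127 CPM in WT and to 132 to 177 CPM in Scl-/-, and WT replicate 2 was again the highest WT library. Sox2 of that list did not separate the groups, at 4.59, 5.31 and 2.72 CPM in WT and 1.99, 4.30 and 6.89 CPM in Scl-/-. No gene of the list passed the thresholds given below in the fit with condition alone. The part of neural cells in the Nnat values was not tested.

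Nnat lies wholly within the span of Blcap, a gene on the opposite strand. The 2 spans, from gene start to gene end with introns included, share 2445 bases. Blcap was at 39.0, 47.4 and 36.9 CPM in WT and at 70.4, 72.6 and 64.6 CPM in Scl-/-, with a log2 fold change of 0.75 (SE 0.12). The small RNA gene Gm23134, of which 87 bases overlap Nnat, had a log2 fold change of 2.02 (SE 0.29). The strand setting of the counting is not given in the sources used here. Reads of Nnat, Blcap and Gm23134 may therefore be shared among the 3 where their exons overlap. The other tested genes within 500 kb of Nnat lay between -0.31 and 0.38 on the log2 scale.

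Plagl1 (ENSMUSG00000019817, chr10:12810497-12851500, plus strand), a zinc finger transcription factor also known as Zac1, was at 6.45, 10.8 and 6.70 CPM in WT and at 9.16, 17.6 and 20.0 CPM in Scl-/-. Scl-/- was higher in all pairs, by 0.48, 0.67 and 1.51, but Scl-/- replicate 1 was below WT replicate 2. The log2 fold change was 0.89 (SE 0.32). Its domain partner Phactr2, a regulator of actin and protein phosphatase 1, was at -0.02 on the log2 scale.

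Mest (ENSMUSG00000051855, chr6:30673547-30698457, plus strand), an enzyme-like protein of the hydrolase fold that is abundant in embryonic mesoderm, was the member whose group means lay closest together. It was at 539, 443 and 597 CPM in WT and at 601, 384 and 576 CPM in Scl-/-. Replicate 2 was the lowest library of each group, and the log2 fold change was -0.03 (SE 0.19). Copg2, whose gene span overlaps that of Mest on the opposite strand by 904 bases, and Cep41 were at -0.08 and -0.30.

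**Figure D3:**
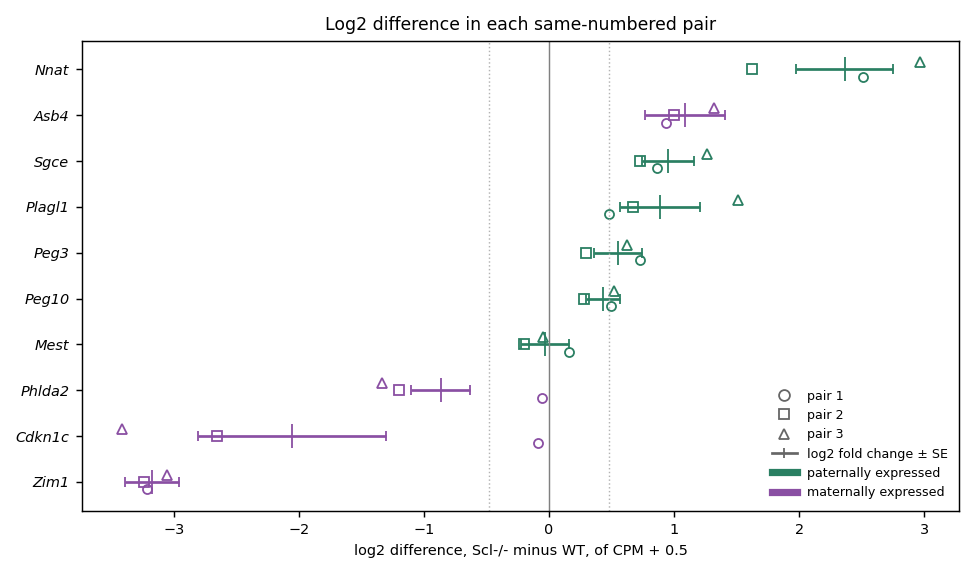
Log2 difference of log2(CPM + 0.5), Scl-/- minus WT, of the 10 members in each same-numbered pair (open symbols) with the log2 fold change ± SE of the fit of all genes (bars); green marks paternally and purple maternally expressed genes, and dotted lines mark the threshold of 0.48. 6 members are above 0 and 3 below 0 in all 3 pairs, and Mest lies around 0.

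Described by parental copy, 5 of the 6 paternally expressed members had a log2 fold change above 0, with a median of 0.72 over the 6, and 3 of the 4 maternally expressed members had one below 0, with a median of -1.46 over the 4. Mest and Asb4 lay the other way. Of the 13991 genes tested, 7244 had a log2 fold change above 0. Some members share a domain, and imprinted genes of other domains were not split by parental copy. Since the members were chosen with this contrast known, no rule by parental copy is read from these counts. Over all 10 members the median was 0.49 and the median of the absolute values 0.92, beside 0.01 and 0.16 over all genes tested. On the 4 chromosomes that hold the members the median of all tested genes lay between -0.004 and 0.014.

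With limma, condition as the only term, and a call at a Benjamini-Hochberg adjusted p under 0.05 with an absolute log2 fold change above 0.48, 1 member was called higher in Scl-/- (Nnat) and 1 lower (Zim1). Of all genes tested 0.793% were called higher and 1.57% lower. The replicate numbers paired the libraries, and with the replicate number as a block 5 members were called higher (Peg3, Sgce, Asb4, Plagl1 and Nnat) and 3 lower (Zim1, Cdkn1c and Phlda2), where 6.04% and 6.6% of all genes were called. The groups did not overlap for 3 members that were higher in Scl-/- (Peg10, Sgce and Nnat) and 2 that were lower (Zim1 and Phlda2), beside 11% and 10.7% of all genes. Since the members were chosen with this contrast known, nothing is read from these counts. The call of Nnat was lost in 5 of the 6 fits that left out 1 library, all but the one without WT replicate 2. The log2 fold change of Peg10, 0.43, is under the threshold.

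Around the members, 52 other tested genes started within 500 kb of one of them, and the median of their log2 fold changes was -0.05. Blcap and Gm23134 were the 2 called among them, both higher, where 0.793% of all genes were called higher and 1.57% lower. With the replicate block 6 were called, beside 6.04% of all genes called higher and 6.6% lower. 6 had an absolute log2 fold change above 0.48. Beside Blcap and Gm23134 these were Ppp1r9a, Zfp28 (-0.62) on the Zim1 side of Peg3, Pdk4 (0.79), a kinase that holds back pyruvate dehydrogenase, 113 kb from Asb4, and Shank2 (0.71), a scaffold gene of synapses, near the edge of the window around Phlda2. From the list of 33 other symbols of the 6 domains, 17 rows were tested, of which 1 was called higher (Blcap) and none lower in the fit with condition alone, with 1 higher (Blcap) and 1 lower (Ppp1r9a) with the block. The same shares of all genes stand beside these counts, from which nothing is read. The median of the 17 rows was -0.08, with 6 above and 11 below 0. Among the remaining symbols, Kcnq1ot1, Usp29, Slc22a18 and Ascl2 had no row under these symbols among the genes listed.

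**Figure D4:**
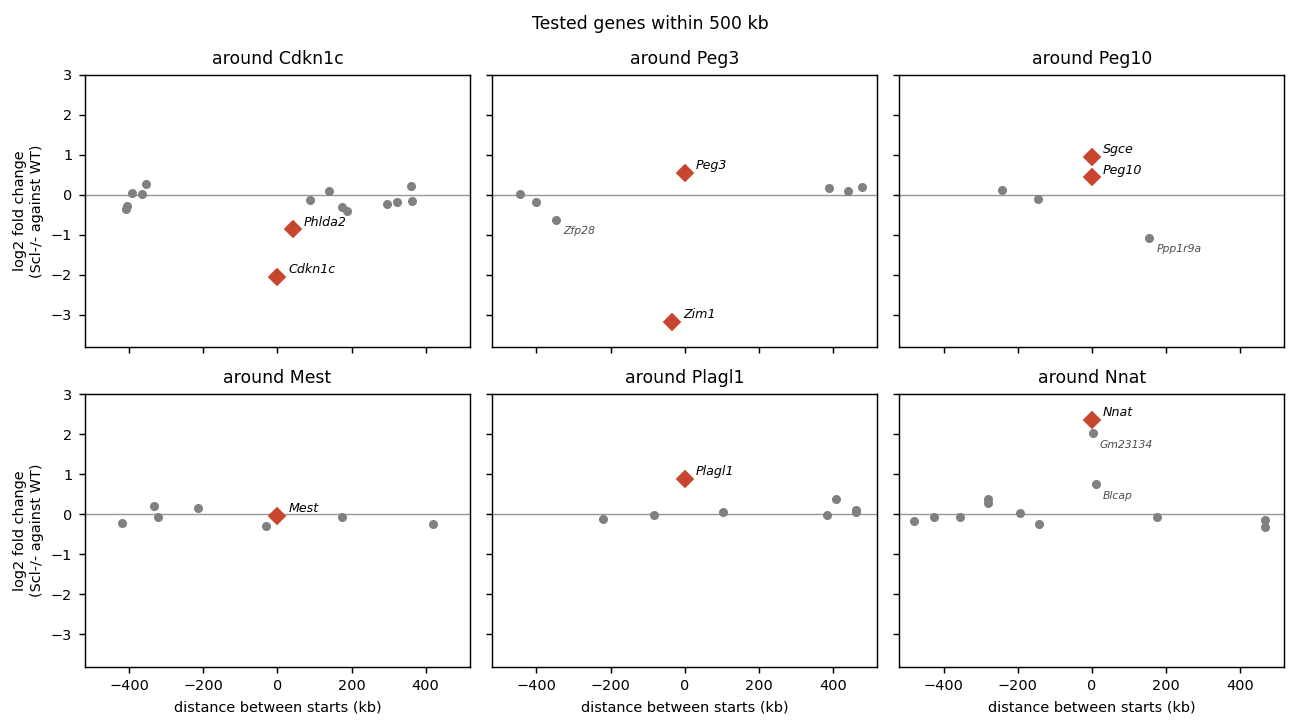
Log2 fold change, Scl-/- against WT, of the tested genes within 500 kb of a member against the distance between starts in kb, for 6 members (diamonds, members; grey points, other genes). The diamonds of Zim1, Cdkn1c and Nnat lie furthest from 0, at -3.17, -2.05 and 2.36, while most grey points lie near 0 and Ppp1r9a lies at -1.07.

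The second contrast, between the replicate numbers within both genotypes, was not used to choose the members and was tested. By limma's moderated F test of the replicate number in a model with condition, with Benjamini-Hochberg adjustment over all genes, 4 of the 10 members differed between the numbered differentiations, beside 32.5% of all genes. Asb4 had the smallest adjusted p among the members (limma, Benjamini-Hochberg adjusted p = 0.00343), with replicate 2 above replicate 1 by 1.00 on the log2 scale, on the mean of the WT and Scl-/- libraries. The WT and Scl-/- libraries gave the same order, with replicate 1 lowest, then 3, then 2. Mest differed as well (limma, Benjamini-Hochberg adjusted p = 0.0121) in another order, with replicate 3 above replicate 2 by 0.51.

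Peg3 (limma, Benjamini-Hochberg adjusted p = 0.0306) and Nnat (limma, Benjamini-Hochberg adjusted p = 0.0475) were both highest in replicate 2 and lowest in replicate 3, with spans of 0.48 and 1.00 on the log2 scale. Nnat was so in both genotypes, whereas Peg3 had its highest Scl-/- value in replicate 1. Sgce, Plagl1, Peg10 and Zim1 did not pass, with limma's Benjamini-Hochberg adjusted p between 0.0518 and 0.0752. Cdkn1c and Phlda2 had the largest adjusted p values of the members (0.121 and 0.756 by limma with the same adjustment), and their WT and Scl-/- libraries did not follow the same order. The call of Asb4 held in each of the 6 fits that left out 1 library. That of Peg3 was lost without WT replicate 2, WT replicate 3 or Scl-/- replicate 3, that of Mest without WT replicate 3, Scl-/- replicate 2 or Scl-/- replicate 3, and that of Nnat without WT replicate 2 or 3. Without the intensity trend in limma, 2 members were called, Asb4 and Zim1, and the calls of Peg3, Mest and Nnat were lost. Averaged over both groups, replicate 2 was highest for 6 members and lowest for 1, Mest. The same count was not made over all genes, so it is not read as a trait of the members.

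**Figure D5:**
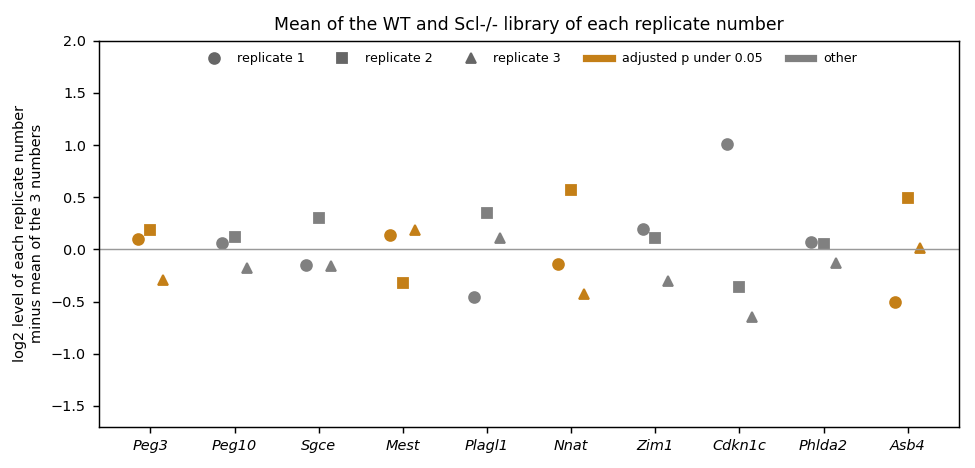
Mean log2(CPM + 0.5) of the WT and Scl-/- library of each replicate number, minus the mean of the 3 numbers, for the 10 members (circle, square and triangle for replicates 1, 2 and 3; orange, adjusted p under 0.05). Asb4 and Nnat span 1.00 and Peg3 and Mest 0.48 and 0.51 on this scale, and Cdkn1c spans 1.66 without passing the test.

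Among the other genes of the 6 domains, 3 of 17 rows differed between the replicate numbers, beside 32.5% of all genes. Nothing about the domains is read from this count. Kcnq1, the potassium channel gene that hosts the control region of its domain, was at 31.3, 25.4 and 3.06 CPM in WT and at 35.0, 22.9 and 5.78 CPM in Scl-/- replicates 1 to 3 (limma, Benjamini-Hochberg adjusted p = 0.000669). Replicate 3 was the low one in both genotypes. Ppp1r9a and Phactr2 were the others (limma, Benjamini-Hochberg adjusted p = 0.0278 and 0.0297).

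Genes whose log2 values followed those of a member most closely over the 6 libraries were sought among 13953 genes. These values of Pearson's r describe 6 points in 2 groups that share the pairing by number, so that a difference between groups alone gives a high r. Each closest gene is also the best of these 13953, and Mest, with a log2 fold change of -0.03, still reached 0.993. A high r is therefore not read as a link between genes. Peg3 was followed by Slco3a1, an organic anion transporter gene (r = 0.996), and next by Peg10 (r = 0.990), the only case in which a member was among the 2 closest of another. For Peg10 the closest gene was Sgk3 (0.997), for Sgce Slc16a1 (0.995), for Asb4 Adamts19 (0.998), and for Mest Zbtb3 (0.993). For Nnat it was Nes (0.996), the intermediate filament gene of neural progenitors that also led the neural markers, of which Sox2 overlapped between the groups. Plekhg6 came next for Nnat, also at 0.996. For Plagl1 it was Epcam (0.998), an adhesion molecule of epithelia and ES cells. Zim1 was followed by Pfdn2 (0.999), Cdkn1c by Lyrm2 (0.993) and Phlda2 by BC028528 (0.991).

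The label of the cells was checked against markers. Kdr was at 832 to 868 CPM in WT and 724 to 810 CPM in Scl-/-, and all 7 FLK1+ mesoderm markers were in the table, with sums of 1488 to 1889 CPM in WT and 1833 to 2659 CPM in Scl-/-. Tal1 was at 182 to 306 CPM in WT and 5.68 to 9.35 CPM in Scl-/-. The 10 haemato-endothelial markers summed to 872 to 1402 CPM in WT and to 387 to 542 CPM in Scl-/-. Tal1 itself is in this list, so part of the difference in the sum follows from the genotype. In the fit with condition alone 6 of the 10 were called lower, beside 1.57% of all genes. Etv2, with a log2 fold change of 0.78, was the 1 called higher, beside 0.793% of all genes. The cardiac and paraxial markers (6 of 8, all but Tbx5 and Meox1) summed to 624 to 689 and 587 to 738 CPM. Endoderm markers (3 of 7, without Foxa1, Foxa2, Afp and Ttr), led by Hhex, which haemato-endothelial cells also express, summed to 61.7 to 104.8 CPM in WT and 21.1 to 32.1 CPM in Scl-/-. The libraries held between 38623641 and 47621120 reads on the listed genes.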

How the data were processed

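RNA-seq was performed on FLK1+ cells of day 3.5 EBs, 3 WT and 3 Scl-/- libraries, grouped by their labels. The authors aligned reads with TopHat2 (2.0.8b) to mm9, filtered them with SAMtools (0.1.19), removed duplicates, normalized with edgeR and deposited CPM. Removing duplicates can limit the values of short, abundant genes. The counting tool, its annotation and its strand setting are not given in the sources used here. Each value was a whole multiple of 1 step per library (within 0.01 reads), which gave the reads per library and per gene quoted; counting error is small at this depth except for genes such as Zim1.

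CPM were transformed to log2(CPM + 0.5), and those genes that reached 0.5 CPM in 3 or more libraries were tested with limma 3.58.1 (R 4.3.3, eBayes with intensity trend) and Benjamini-Hochberg adjustment over all genes, for condition and, in a model with both, for replicate number. The pseudocount understates changes of low genes. The code was tested on simulated data. Same-numbered libraries were treated as pairs: their deviations from the group means correlated at 0.587, 0.756 and 0.748. Whether numbers mark more than the independent differentiation is not given, and p-values measure the spread between these libraries only. Positions are those of GENCODE vM1 on mm9, which matched all 14005 identifiers, and exon lengths came from the same annotation. Promoter windows are RefSeq sequences on GRCm38.p6, matched by symbol, and were not placed on mm9.

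The members, the list of other genes of the 6 domains, the list of imprinted genes of other domains and the marker lists were chosen with earlier results of these data known. Genes named are the members, genes of the domain list, neighbours within 500 kb that share sequence with a member or pass 0.48, markers, and the 2 genes most like each member, of which the closest is given; Ppp1r9a, Zfp28, Pdk4 and Shank2 were picked out after their values were seen. Of the columns deposited, none was left unused. Alternatives were a pseudocount of 0.1 or 1, testing every listed gene or those averaging 2 CPM or more, replicate number as a block, leaving out each library in turn, rescaling by median ratios, eBayes without the trend, and calls without the fold threshold. Other steps used Python 3.11.15, NumPy 2.4.6, SciPy 1.17.1, pandas 2.3.3 and Matplotlib 3.10.9.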

Additional observations from a re-analysis of the deposited data

How the results depend on the processing

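The 10 members' log2 fold changes gave 130 values under the alternatives; 114 kept direction and call, 9 gained a call, 5 lost one (Nnat, each time on leaving out 1 library) and 2 changed sign, both of Mest (0.06 without WT replicate 3 and 0.17 without Scl-/- replicate 2; its range with 1 library left out was -0.15 to 0.17). With the pairing as a replicate block 1768 genes were called (845 higher, 923 lower) in place of 330 (111 and 219), 8 members in place of 2, 2 other genes of the 6 domains in place of 1 and 14 imprinted genes of other domains in place of 6. With each library left out in turn, 44 to 384 genes were called (11 to 172 higher, 33 to 240 lower), with 1 to 3 members, 0 to 1 other genes of the domains and 2 to 7 imprinted genes of other domains. The fewest, 44, came without WT replicate 1, and leaving out WT replicate 3, Scl-/- replicate 2 or Scl-/- replicate 3 gave 128, 129 and 162; Zim1 was the 1 member called in each of these 4 fits. Genes called for the replicate number were 4554, and 631 to 6462 with 1 library left out and 2190 with no intensity trend; members called were 4, then 2 to 9 and 2. Asb4 was called for the replicate number in 13 of 13 settings. Rescaling shifted the median log2 fold change of all genes from 0.009 to -0.002. The causes of these shifts were not tested, beyond fewer libraries entering each fit that left 1 out.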

Other observations

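Imprinted genes of other domains were counted beside the members. Of 43 listed symbols 30 were tested; 4 were called higher and 2 lower in Scl-/- by limma with condition alone, and 9 and 5 with the replicate block. Of all genes tested 0.793% and 1.57% were so called, and 6.04% and 6.6% with the block. The lowest log2 fold change was -7.25 and the highest 3.13, the median -0.01 and the median absolute value 0.45, against 0.92 for the 10 members and 0.16 for all genes. The groups did not overlap for 11 that were higher and 3 that were lower, beside 11% and 10.7% of all genes. 12 of the 30 differed between the replicate numbers, beside 32.5% of all genes.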
